A study of Mus musculus with 9 samples.

Results

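The proteasome genes of the mouse were followed across the 9 hypothalamus libraries of the series. They were chosen by name, as every protein-coding gene whose symbol starts with Psma, Psmb, Psmc, Psmd, Psme, Psmf or Psmg followed by a number, which gave 48 of the 54532 genes counted (22046 of them protein-coding), spread over 16 chromosomes. By role the 48 are 8 alpha-ring subunits of the core particle, 4 structural beta subunits, 3 constitutive catalytic subunits, 3 immunoproteasome catalytic subunits, 1 thymoproteasome catalytic subunit, 6 ATPases and 11 non-ATPases of the regulatory particle, 3 chaperones of its base, 4 activators, 1 inhibitor and 4 core assembly chaperones. All pups were wild-type males of ICR, an outbred stock, sampled on postnatal day 21, and each group had 3 libraries, named here by group and replicate (LP 1 and so on). In LP the dam ate a low-fat diet (10% of kcal as fat) and the pup was given PBS, the vehicle. In HP the dam ate a high-fat diet rich in sucrose (45% of kcal as fat) and the pup was likewise given PBS. In HA the dam ate that same high-fat diet and the pup was given 4-PBA (4-phenylbutyric acid), known as a chemical chaperone and an inhibitor of histone deacetylases. Injections were daily from postnatal day 4 to day 16, and dams had started their diet at 5 weeks of age, 5 weeks ahead of mating. No group combined the low-fat diet with 4-PBA. Litters were set to 10 pups. The labels do not name the litter of a pup, so each p reflects only how far these libraries scatter, which may be technical or shared by littermates.

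The proteasome degrades proteins that have been tagged with ubiquitin. Its core particle is a stack of rings: outer rings of alpha subunits guard the entrance, and inner rings of beta subunits carry the cutting sites. The regulatory particle caps the core, where ATPases unfold the substrate and non-ATPases bind ubiquitin, remove it and hold the cap together. Interferon can replace the constitutive cutting subunits by immunoproteasome subunits, which favour peptides for display on class I molecules, and the activators Psme1 and Psme2 form an alternative cap. Assembly chaperones help build both particles and leave the finished complex. Neurons depend on this system for turnover of synaptic and misfolded proteins.

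Total counts lay between 18226924 and 21823961 per library. The 15 hypothalamic marker genes summed to between 1222 and 1577 CPM (counts scaled to a common depth with TMM factors) in every library, with Kiss1 at 0 throughout. A pair of libraries stood apart in markers of neighbouring tissue: 7 meningeal fibroblast genes summed to 420.4 CPM in LP 3 and 945.7 CPM in HA 3, against 68.5 to 134.1 CPM elsewhere. Striatal neuron markers summed to 258.4 CPM in LP 1 and 354.3 CPM in LP 2, against 132.8 to 148 CPM in the other libraries. Pituitary markers summed to 46.39 CPM in HA 3, against 13.05 to 26.18 CPM in the others. Oligodendrocyte markers ran from 11340 CPM (HA 3) to 20130 CPM (LP 2). In bulk tissue, fewer cells of a type and less RNA per cell cannot be told apart. The library titles also carry a code that is not explained, and it differs between the diets, so code and diet cannot be told apart.

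The proteasome genes of the cell's standard complex were abundant and differed little between groups. Of the 48 genes, 46 passed the filter on low counts and were tested. Psma8, the alpha subunit known from testis, had 2 to 8 counts per library, and Psmb11, the thymus catalytic subunit, had 1 to 3 counts, and neither was tested. None of the 46 passed an adjusted p of 0.05 in any comparison (edgeR quasi-likelihood test, Benjamini-Hochberg over 17546 genes). Of all genes tested, 0.0114% were called between HP and LP, 0.0114% between HA and HP and 0% between HA and LP. With DESeq2 none of the proteasome genes was called either, among 32, 8 and 27 genes called in all. At an unadjusted p under 0.05, 3 of 46 differed between HP and LP, against 6.12% of all genes; all 3 were higher in HP, against 3.12%. With DESeq2 2 of 48 passed, against 2.64%. Between HA and HP no proteasome gene had an unadjusted p under 0.05 with edgeR or DESeq2, against 5.42% of all genes in the edgeR test. Between HA and LP there was likewise none with either tool, against 6.51%.

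The precision of the 31 core and regulatory subunits (alpha ring, structural and constitutive catalytic beta subunits, ATPases and non-ATPases) was high. For HP against LP their 95% intervals of the log2 fold change reached from -0.21 (Psmb3) to 0.27 (Psmd1). In HA against HP they reached from -0.23 (Psmd11) to 0.19 (Psmb3), and in HA against LP from -0.21 (Psmc6) to 0.21 (Psmd1). Changes of these subunits below 0.851-fold or above 1.209-fold lay outside every one of the intervals. For HP against LP the interval of 29 of the 31 included equal expression, and in both other comparisons that of all 31 did.

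**Figure D1:**
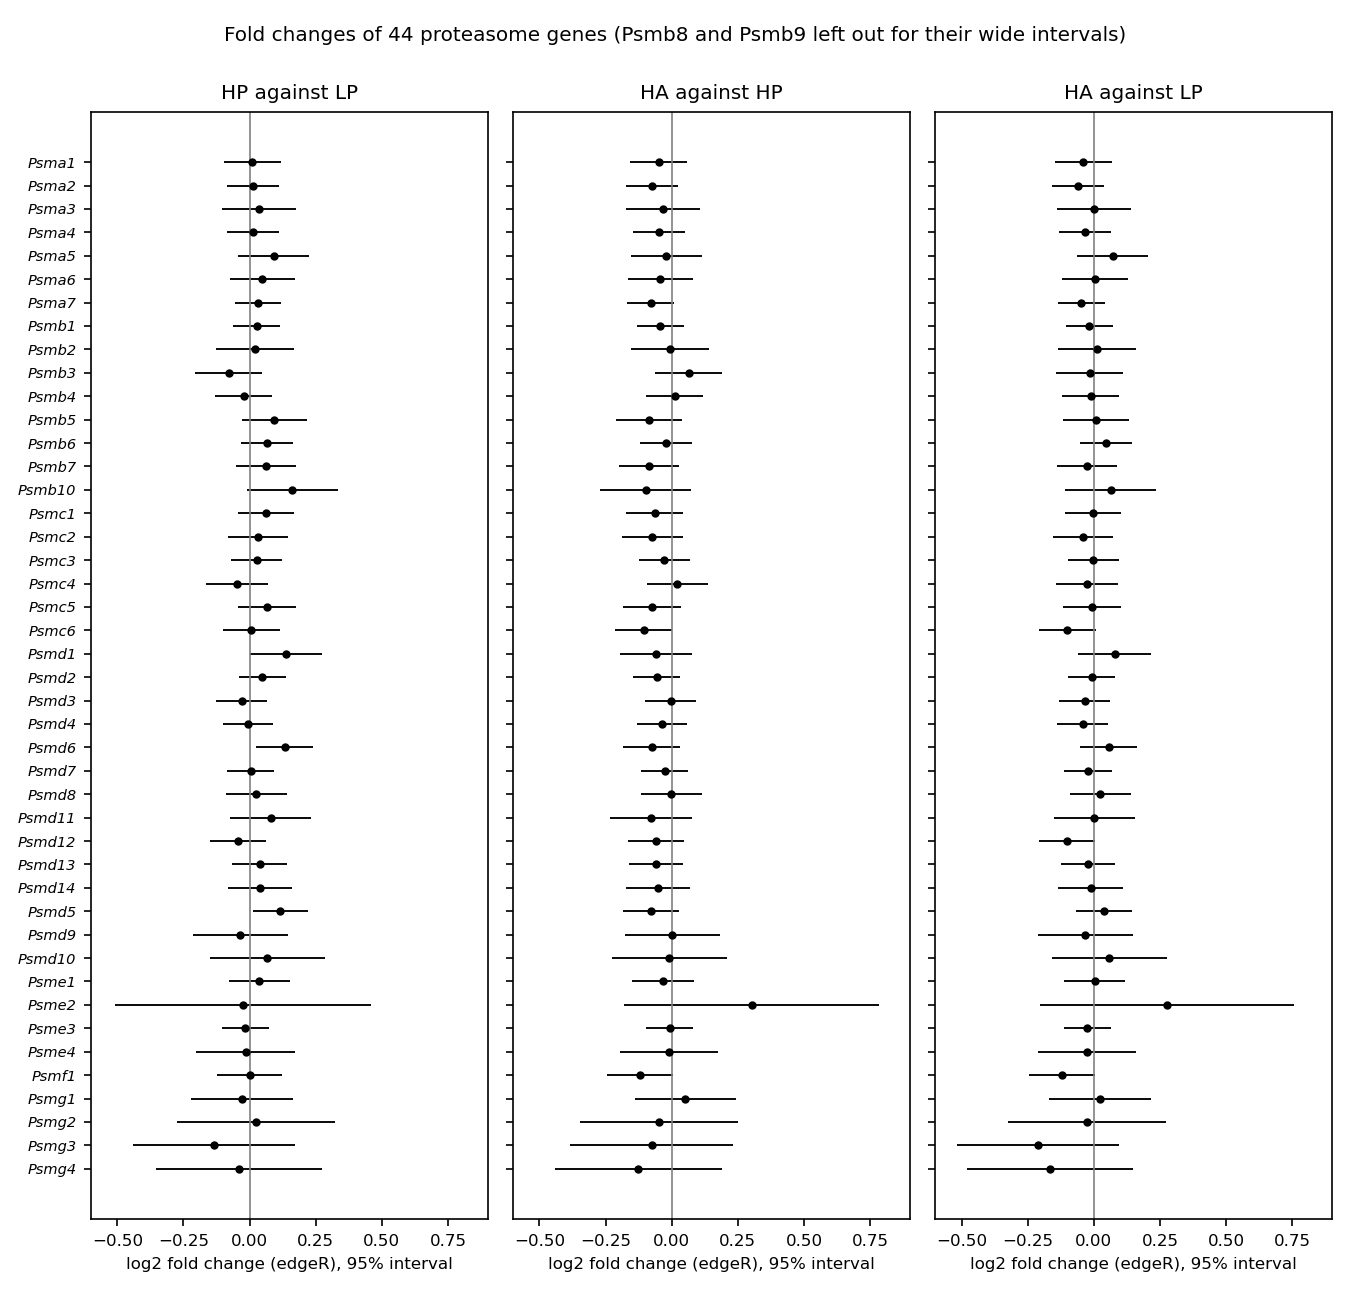
Log2 fold changes (horizontal axis, edgeR) of 44 proteasome genes in the 3 comparisons, with points as estimates and lines as 95% intervals. Psmb8 and Psmb9 are left out for their wide intervals; the 31 core and regulatory subunits stay between -0.23 and 0.27, and Psme2 and the Psmg genes have wider intervals.

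Although no gene was called, the signs of the estimates were uneven. In HP 31 of 46 were higher than in LP, against 49.1% of all genes, with a median log2 fold change of 0.03 (all genes 0.00). In HA 38 of 46 were lower than in HP, against 49.1% of all genes, with a median of -0.05 (all genes 0.00). Between HA and LP 29 of 46 were lower in HA, against 48.1%, with a median of -0.01 (all genes 0.01). The comparisons of HA with HP and of HP with LP share the HP libraries, so the opposite leanings are not independent of each other. All 46 genes were also measured in the same libraries, so their signs are not 46 separate observations. HP was the group of highest mean for 30 of the 46 genes (65.2%, against 32.2% of all genes). HA was the lowest for 24 (52.2%, against 32.6%). Placed by the median deviation of the 46 genes from their own means (log2 CPM), the libraries stood at 0.01, 0.02 and -0.04 in LP, 0.04, 0.01 and 0.03 in HP, and 0.00, -0.02 and -0.04 in HA, with a pooled SD of 0.0225 within groups. The lowest placements were those of LP 3 and HA 3, the libraries with the most meningeal marker RNA, and the part of that RNA in the placements was not tested. Without both libraries, 27 of 46 genes were higher in HP than in LP (all genes 50.7%) with a median of 0.01, and 10 of 46 were higher in HA than in HP (all genes 50%) with a median of -0.04. Scaled by library totals, 14 of 46 rather than 8 of 46 were higher in HA than in HP, against 58% of all genes.

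**Figure D2:**
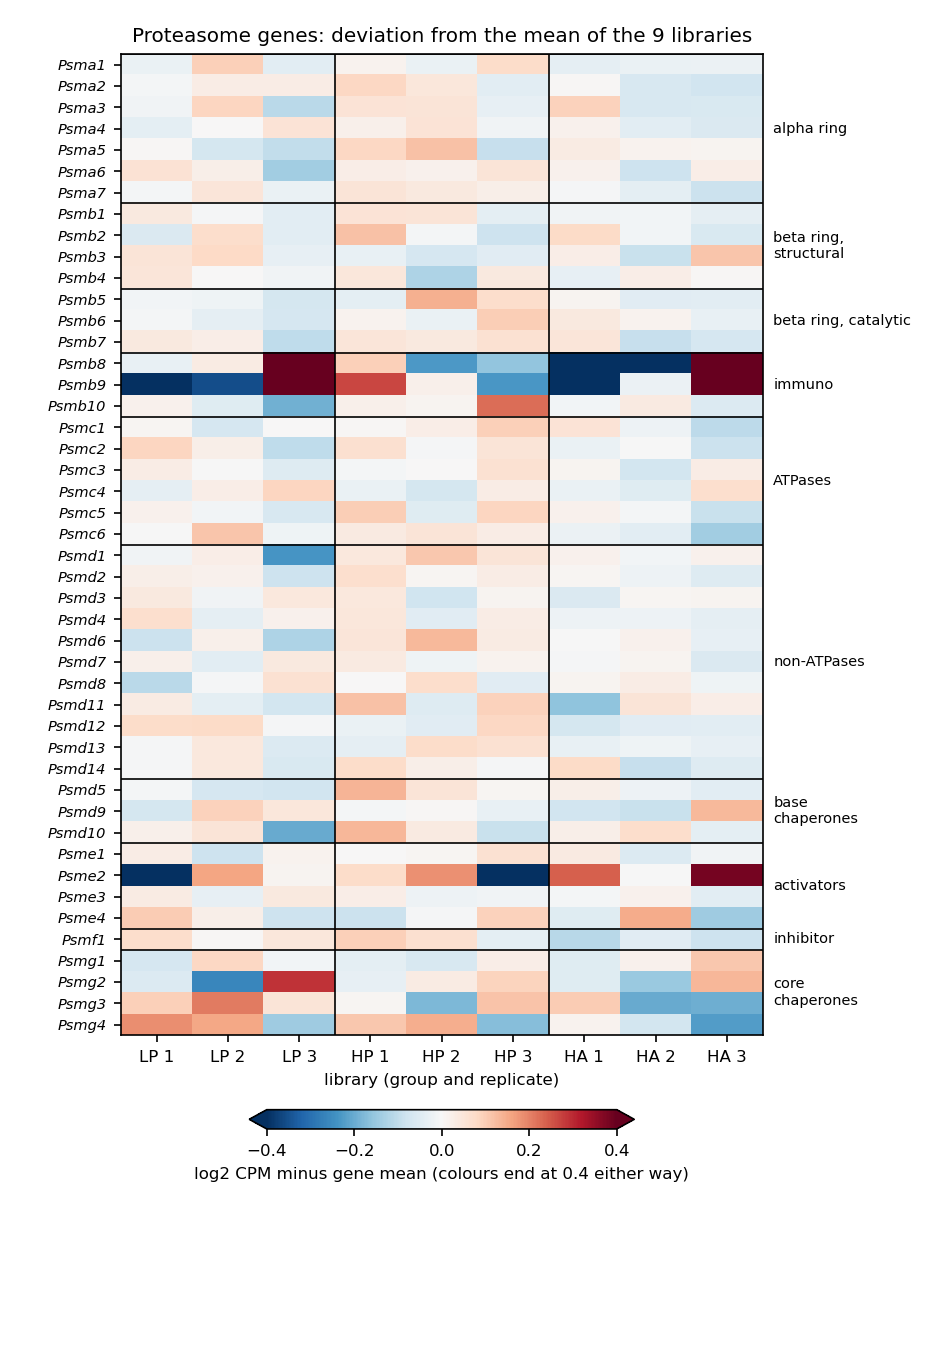
Deviation of each of the 46 tested proteasome genes (rows, by role) from its mean over the 9 libraries (columns), in log2 CPM, with colours ending at 0.4 either way. Most rows are pale in all columns, and strong colours are found in Psmb8, Psmb9 and Psme2, with HA 3 highest in all 3.

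In the alpha ring, which gates the core, all 7 tested subunits had a higher estimate in HP than in LP, between 0.01 and 0.09 on the log2 scale, and all 7 a lower one in HA than in HP, between -0.08 and -0.02. Psma7 stood at 100.6, 104.8 and 99.4 CPM in LP, at 104.8, 104.0 and 102.9 in HP and at 101, 98.5 and 95.4 in HA. Each HA library lay below each HP library, while LP overlapped both; the log2 fold change of HA against HP was -0.08 (SE 0.039, edgeR adjusted p = 0.84). Psma5 stood at 59.6, 56.6 and 55.5 CPM in LP, at 62.8, 64.4 and 55.6 in HP and at 60.7, 59.9 and 59.8 in HA. It was the only proteasome gene with every HA library above every LP library, against 5.4% of all genes, and its log2 fold change was 0.07 (SE 0.060, edgeR adjusted p = 0.854). Psma2 ranged from 92.7 to 103.5 CPM and Psma6 from 85.2 to 97.6 CPM over the 9 libraries, with overlap between all groups.

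The structural beta subunits, which complete the inner rings without a cutting site of their own, were split. Psmb3 stood at 70.3, 71.7 and 66.3 CPM in LP, at 66.6, 64.8 and 65.8 in HP and at 69.2, 63.8 and 73.3 in HA. Unlike the alpha subunits it had a lower estimate in HP than in LP, of -0.08 (SE 0.057, edgeR adjusted p = 0.886), with overlapping libraries. Psmb1 lay between 143.9 and 154.1 CPM.

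The 3 constitutive cutting subunits had estimates above LP in HP and below HP in HA, none past the test. Psmb5, the chymotrypsin-like site, stood at 53.5, 53.3 and 51.4 CPM in LP, at 52.5, 59.5 and 56.7 in HP and at 54.4, 52.2 and 52.4 in HA. Psmb6, the caspase-like site, stood at 91.2, 89.4 and 87.4 CPM in LP, at 92.6, 89.99 and 98.05 in HP and at 94.1, 92.5 and 89.9 in HA. Psmb7, the trypsin-like site, stood at 114.1, 113 and 103.4 CPM in LP, at 114.8, 114 and 115.9 in HP and at 114.7, 104.1 and 106 in HA. Groups overlapped for each of them, and the largest estimate was 0.09 for Psmb5 in HP against LP (SE 0.056, edgeR adjusted p = 0.867). Psmb7 shares exon bases with Nek6 on the other strand, and without stranded counting reads of that stretch cannot be told apart. The same holds for Psmc3 with Slc39a13, Psmd13 with Sirt3, Psmb9 with Tap1 and Psme1 with Emc9.

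The immunoproteasome subunits were unequal in level. Psmb10, which replaces Psmb7, stood far above Psmb8 and Psmb9, with 36.6, 35.0 and 31.7 CPM in LP, at 36.7, 36.4 and 42.3 in HP and at 36.0, 37.1 and 34.8 in HA. LP overlapped HP by a narrow margin, HP 2 and HP 1 lying near LP 1, and the estimate of HP against LP was 0.16 (SE 0.077, edgeR adjusted p = 0.826). Psmb8, which replaces Psmb5, stood at 1.27, 1.33 and 1.99 CPM in LP, at 1.39, 1.09 and 1.15 in HP and at 0.829, 0.856 and 2.40 in HA, from 16 to 45 counts. Psmb9, which replaces Psmb6, stood at 0.584, 0.616 and 1.24 CPM in LP, at 1.002, 0.829 and 0.680 in HP and at 0.276, 0.802 and 2.45 in HA, from 6 to 46 counts. HA 3 was the highest library for both and LP 3 the second, in the order of the meningeal marker sums given above. HA 3 also held the highest sums of endothelial markers (341 CPM, others 234.4 to 276.2), blood (90.2 CPM, others 15.7 to 70.0), lymphocytes (3.04 CPM, others 0.467 to 2.09) and microglia (345.8 CPM, others 286.9 to 330.5). None of the 9 lymphocyte genes passed the filter on low counts. The part of these cells in the values of Psmb8 and Psmb9 was not tested. The estimate of Psmb9 in HA against HP was 0.47 (SE 0.638, edgeR adjusted p = 0.91) and became -0.65 without HA 3, and that of Psmb8 went from 0.16 to -0.52. The 95% interval of Psmb9 ran from 0.519-fold to 3.71-fold in HA against HP and from 0.377-fold to 2.85-fold in HP against LP. Within groups its coefficient of variation was 73.8%, against 23.6% from counting alone, and that of Psmb8 was 42.1%, against 19.45%.

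**Figure D3:**
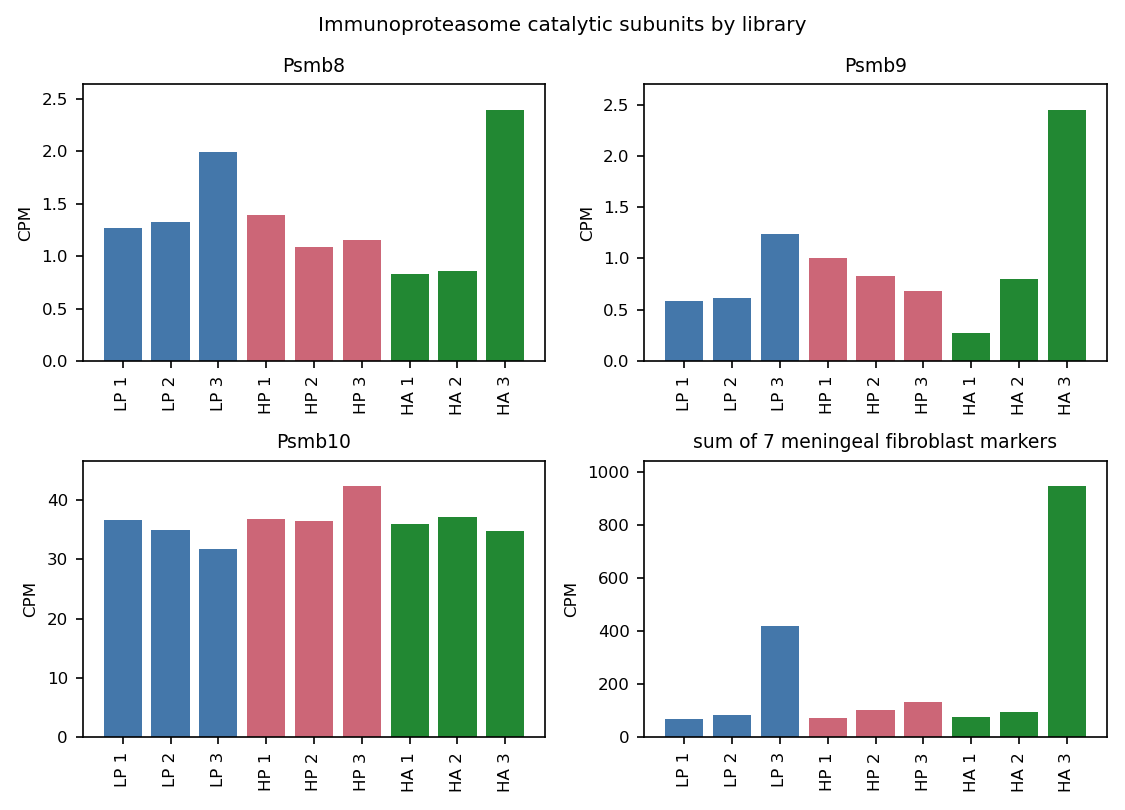
CPM of the immunoproteasome catalytic subunits Psmb8, Psmb9 and Psmb10 and the summed CPM of 7 meningeal fibroblast markers, with 1 bar per library (LP blue, HP pink, HA green). Psmb8, Psmb9 and the marker sum are highest in HA 3 and next in LP 3, and Psmb10 is not.

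FPKM, which divides by the summed length of the gene model as well as by depth, allows levels of different genes to be compared. The share of Psmb8, Psmb9 and Psmb10 in the summed FPKM of the 6 catalytic genes was 13.1% ± 0.364 in LP, 13.7% ± 0.792 in HP and 13.6% ± 0.525 in HA (SD, n = 3 each), and the libraries of the groups overlapped. Nearly all of it was Psmb10: Psmb8 and Psmb9 together made up between 0.228% (HA 1) and 0.970% (HA 3). On this scale the ATPases Psmc5 (96.3 FPKM ± 4.29, SD over 9 libraries) and Psmc1 (76.5 FPKM ± 3.19) and the alpha subunit Psma6 (75.8 FPKM ± 3.29) were the highest of the proteasome genes, and Psmb4 followed at 71.2 FPKM ± 2.56. Psmc1 and Psma6 differed by less than their spread. The remaining tested alpha subunits lay between 20.2 (Psma3) and 44.8 FPKM (Psma5), the other ATPases between 21.3 (Psmc2) and 41.4 FPKM (Psmc3), and the non-ATPases between 10.3 (Psmd11) and 59.7 FPKM (Psmd2). The untested Psma8 had 0.167 FPKM and Psmb11 0.0224 FPKM. Base chaperones lay from 3.23 (Psmd9) to 10.9 FPKM (Psmd10) and core chaperones from 2.24 (Psmg3) to 17.2 FPKM (Psmg2). Psmd11 aside, all 31 core and regulatory subunits lay above every one of these chaperones. The lowest tested levels were those of Psmb9 (0.256 FPKM) and Psmb8 (0.497 FPKM). Untranslated exons counted in the length lower FPKM, so the order between genes is tied to the gene model. Psmb5 and Psma3 also have near-identical pseudogenes, described below. The mean counts were 832.9 for Gm3375 against 1055.2 for Psmb5, and 691.8 for Gm13835 against 1544.8 for Psma3. Reads of the genes counted at these copies would lower their FPKM and, for Psmb5, raise the immunoproteasome share. How far this happened was not tested.

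**Figure D4:**
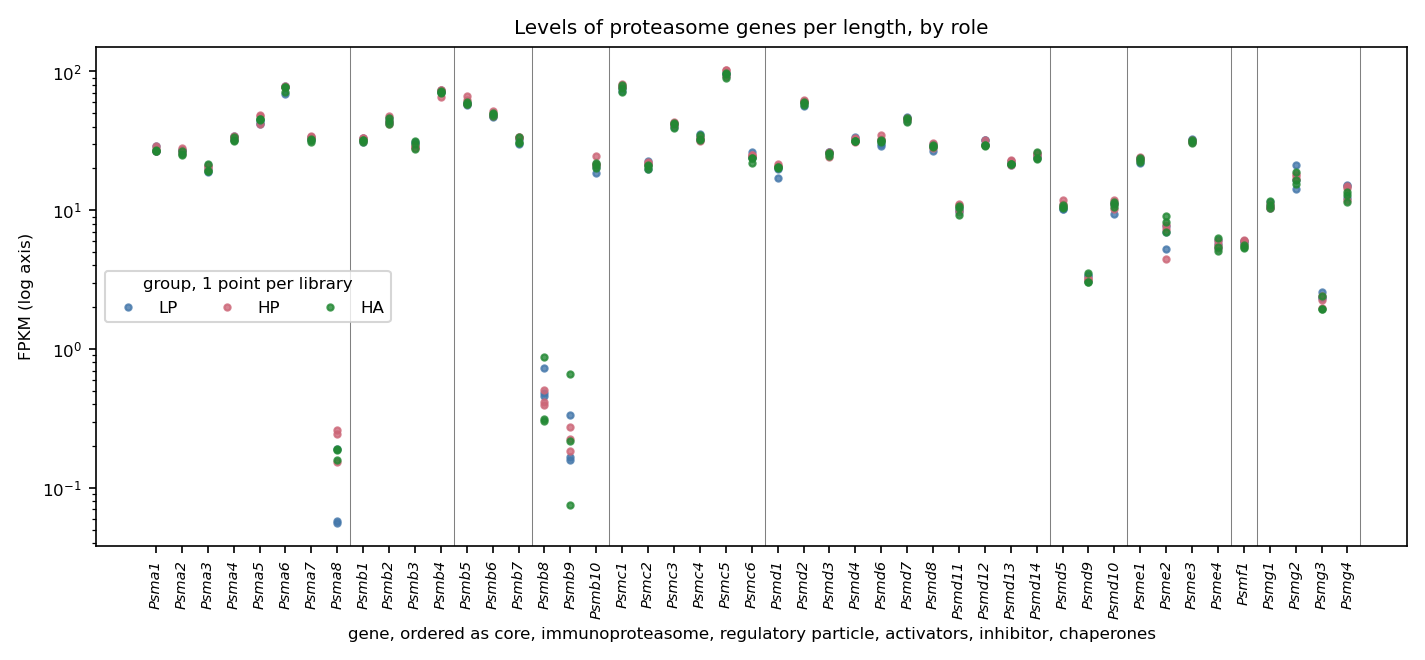
FPKM of each proteasome gene except Psmb11 on a log axis, with 1 point per library and colour for the group, ordered by role. Core and regulatory subunits lie mostly between 10 and 100 FPKM with the 9 points of a gene close together. Psmb8, Psmb9 and the untested Psma8 lie under 1 FPKM and are spread out.

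Among the ATPases, Psmc6 stood at 85.3, 92.2 and 84.2 CPM in LP, at 87.4, 88.4 and 87.1 in HP and at 83.9, 82.8 and 77.5 in HA. All 3 HA libraries lay below all 6 others, by a margin of under 1 CPM. The log2 fold change was -0.11 (SE 0.049, edgeR adjusted p = 0.84) against HP and -0.10 (SE 0.049, edgeR adjusted p = 0.791) against LP. Psmc5 ranged from 126.4 to 144.2 CPM, Psmc1 from 137.9 to 158.2 CPM and Psmc2 from 99.99 to 113.7 CPM, with overlapping groups. Of the 6 ATPases, 5 had a higher estimate in HP than in LP and 5 a lower one in HA than in HP, Psmc4 being the exception in both.

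The non-ATPases held the largest estimates of HP against LP among the standard subunits. Psmd6 (ENSMUSG00000021737, chromosome 14, 14112174 to 14120984), a lid subunit, stood at 83.8, 90.1 and 81.6 CPM in LP, at 91.9, 97.3 and 90.9 in HP and at 88.8, 89.99 and 86.9 in HA. Every HP library lay above every library of the other 2 groups, and the estimate of HP against LP was 0.13 (SE 0.049, edgeR unadjusted p = 0.0212, adjusted p = 0.792). Psmd1 (ENSMUSG00000026229, chromosome 1, 86064387 to 86139151), the large scaffold subunit of the base, stood at 145.4, 149.4 and 124.5 CPM in LP, at 151.1, 158 and 152.1 in HP and at 148.3, 145.7 and 148.7 in HA. Here too HP lay above both other groups, and LP 3 was far below the rest. The estimate of HP against LP was 0.14 (SE 0.061, edgeR unadjusted p = 0.0492, adjusted p = 0.816) and 0.06 without LP 3. Psmd2, the other scaffold of the base, ranged from 227.9 to 253.1 CPM, with all HA libraries below all HP libraries.

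Psmd12 (ENSMUSG00000020720, chromosome 11, 107479484 to 107504362), also of the lid, stood at 84.7, 84.9 and 80.2 CPM in LP, at 79.0, 78.1 and 85.2 in HP and at 76.6, 78.0 and 78.2 in HA. HA lay below LP without overlap and HP spanned both, and the estimate of HA against LP was -0.10 (SE 0.047, edgeR adjusted p = 0.776). All 11 non-ATPases had a lower estimate in HA than in HP, between -0.08 and 0.00 on the log2 scale. They include Psmd4, a ubiquitin receptor, and Psmd14, the deubiquitinase of the lid, whose groups overlapped.

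Psmd5, a chaperone that holds ATPases of the base during assembly, was the third gene with a low unadjusted p. It stood at 77.2, 74.1 and 73.7 CPM in LP, at 85.4, 80.4 and 78.0 in HP and at 79, 76.5 and 75.4 in HA. HP lay above LP without overlap, and HA lay between and overlapped both. The estimate of HP against LP was 0.12 (SE 0.047, edgeR unadjusted p = 0.0333, adjusted p = 0.807). Psmd10, also called gankyrin, ranged from 13.9 to 17.6 CPM with overlapping groups. Psmd6, Psmd1 and Psmd5 were the 3 genes with every HP library above every LP library, 3 of 46 against 5.93% of all genes, and no proteasome gene had the reverse (5.83% of all genes). Without LP 3 none of the 3 kept an unadjusted p under 0.05 (edgeR).

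Every HA library lay below every HP library for 6 of 46 genes (Psma7, Psmc6, Psmd1, Psmd2, Psmd6 and Psmf1), against 5.89% of all genes, and none lay above (5.92%). That count was 3 when libraries were scaled by their totals (4.15% of all genes) and 18 without HA 1 (13% of all genes). For HA against LP the libraries did not overlap for Psmc6, Psmd12 and Psmf1, all lower in HA (5.51% of all genes), and for Psma5.

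Psmf1 (ENSMUSG00000032869, chromosome 2, 151715812 to 151744186), known as an inhibitor of the core particle in vitro, stood at 39.1, 37.3 and 38.4 CPM in LP, at 39.7, 38.9 and 36.2 in HP and at 34.5, 36.0 and 35.1 in HA. The 3 HA libraries were the lowest of the 9, with HP 3 next. The log2 fold change was -0.12 (SE 0.056) both against HP (edgeR adjusted p = 0.84) and against LP (edgeR adjusted p = 0.776), and its 95% interval against LP ran from -0.25 to 0.00.

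Of the activators, Psme3, a nuclear cap that works without ATP, was the steadiest of the 46 genes. It lay between 90.7 and 96.1 CPM, a coefficient of variation of 2.07% over the 9 libraries, with 2.34% due to counting alone at its depth. Psme4, the large single-chain activator, lay between 43.1 and 52.8 CPM with overlapping groups. Psme1 lay between 48.3 and 53.5 CPM, and its estimate was 0.04 in HP against LP, -0.03 in HA against HP and 0.00 between HA and LP.

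Psme2, the partner of Psme1, varied far more, and it has a near-identical copy. Psme2 (chromosome 14, 55587441 to 55591113) and Psme2b (chromosome 11, 48945354 to 48946190) share 712 of 717 coding bases (99.3%), so a short read often matches both. The stretch below, 60 bases of each, holds 3 of the 5 differences, in capitals. It spans positions 484 to 543 of Psme2 and 556 to 615 of Psme2b. Positions of a gene count from the first coding base, and those of its copy from the first base of the GENCODE transcript. It is shown with a stretch of Psmb5 (263 to 322) and of its processed pseudogene Gm3375 on chromosome 7 (264 to 323), which share 99% of 792 coding bases.
Psme2: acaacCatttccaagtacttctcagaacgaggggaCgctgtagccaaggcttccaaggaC
Psme2b: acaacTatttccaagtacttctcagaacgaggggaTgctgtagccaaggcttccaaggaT
Psmb5: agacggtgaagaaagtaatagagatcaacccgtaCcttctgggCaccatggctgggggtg
Gm3375: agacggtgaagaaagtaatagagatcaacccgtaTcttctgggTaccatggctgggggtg
Psme2 stood at 9.25, 13.7 and 12.4 CPM in LP, at 12.9, 13.9 and 7.84 in HP and at 14.5, 12.2 and 16.0 in HA. Psme2b stood at 8.47, 6.02 and 9.89 CPM in LP, at 9.74, 8.19 and 11.0 in HP and at 8.38, 8.39 and 7.35 in HA. HP 3 was the lowest library for Psme2 and the highest for Psme2b. The sum of the pair varied less, with a coefficient of variation of 9.45% against 20.4% for Psme2 and 17% for Psme2b, and the share of Psme2 in it ran from 41.7% (HP 3) to 69.5% (LP 2). How the authors' counting treated reads that match both copies is not given in the sources used here, so the values of Psme2 alone are uncertain. The estimate of HA against HP was 0.30 for Psme2 (SE 0.217, edgeR adjusted p = 0.844) and 0.07 for the sum (SE 0.106, edgeR adjusted p = 0.914). Sums of gene and copy were formed after the data had been seen.

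Psmb5 and Psma3 may share reads with pseudogenes in the same way, and their shares of the sums were steadier. Psmb5 made up between 54.3% and 58.4% of the sum with Gm3375. Psma3 made up between 66.4% and 70.2% of the sum with Gm13835 on chromosome 6, whose aligned 662 bases were identical to it. No sum was called, with edgeR adjusted p-values between 0.824 and 0.969. Psma5 has pseudogenes as well, Gm8394 and Gm12989, whose mean counts of 80.6 and 59.8 stood against 1160.6 for the gene.

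**Figure D5:**
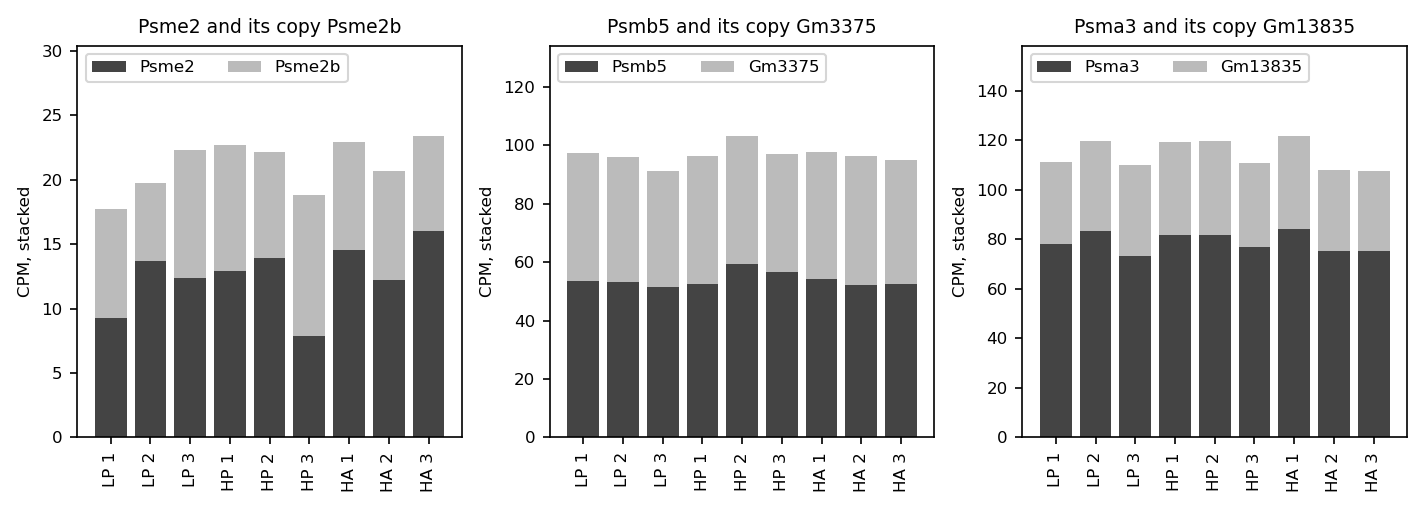
Stacked CPM per library of 3 proteasome genes (dark) and their near-identical copies (light). The total of Psme2 and Psme2b varies less than either part, and the division between gene and copy shifts most in HP 3 and LP 2; the divisions of Psmb5 and Psma3 are nearly constant.

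The core assembly chaperones were low and their intervals wider. Psmg3 stood at 6.92, 7.49 and 6.72 CPM in LP, at 6.51, 5.70 and 7.01 in HP and at 6.95, 5.61 and 5.65 in HA. The estimate of HA against LP was -0.21 (SE 0.138, edgeR adjusted p = 0.827), with overlapping libraries. Psmg4 ranged from 6.39 to 8.52 CPM, Psmg1 from 13.9 to 15.7 CPM and Psmg2 from 15.2 to 22.3 CPM, its highest value in LP 3. Without LP 3, no core chaperone was called either.

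Measured over the 9 libraries, the proteasome genes varied little. The median coefficient of variation of CPM was 4.45% for the 46 genes, from 2.07% (Psme3) to 66.6% (Psmb9), against a median of 9.60% for all genes tested. Their median mean count was higher, 1541 against 362.2, and higher counts carry less counting error. Of the 46, 30 lay below 5% and 40 below 10%. The remaining 6 were Psmg2, Psmg3, Psmg4, Psme2, Psmb8 (37.8%) and Psmb9.

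The 250 bases upstream of the start were available from RefSeq (GRCm38.p6) for 40 of the 48 genes, as 43 entries. The antioxidant response element bound by Nfe2l1 and Nfe2l2, factors known to drive proteasome genes, was searched on both strands as TGACNNNGC and as TGAGNNNGC. The former was found for 5 of 40 genes (12.5%, against 10.2% of 32851 promoter entries) and the latter for 9 (22.5%, against 14.4%). CCAAT was found for 14 (35%, against 33.9%). The core of the interferon-stimulated response element was found for 3 (7.5%, against 2.98%), namely Psmb3, Psmd4 and Psmd9, and not in the windows of Psmb8, Psmb9 and Psmb10. Windows end at the RefSeq start, and some reach into the gene model counted here. Wholly inside it lie those of Psmb8, Psmb9, Psmb11, Psmd5, Psmd9, Psmd13, Psme1 and Psmf1 and an entry each of Psma6 and Psmc2. Matches counted above for Psmd5, Psmd9 and Psmc2 come only from such windows. That of Psmb10 is among those that overlap an end of the model. Bases further upstream of these genes were not searched. A gene with several entries was counted when any held a match, so the shares are not on quite the same footing. Psmc6 and Psmd12, 2 of the 3 genes with all HA libraries below LP, held both forms of the antioxidant element, as did no other of the 40 (2 of 40, 5%, against 1.53% of all promoter entries). Psmf1, the third of those genes, had no match to any motif searched. The pair of windows was singled out after its values were seen. They are printed with matches in capitals, for Psmc6 from chr14:45329574-45329823 and for Psmd12 from chr11:107479278-107479527, both on the plus strand.
Psmc6: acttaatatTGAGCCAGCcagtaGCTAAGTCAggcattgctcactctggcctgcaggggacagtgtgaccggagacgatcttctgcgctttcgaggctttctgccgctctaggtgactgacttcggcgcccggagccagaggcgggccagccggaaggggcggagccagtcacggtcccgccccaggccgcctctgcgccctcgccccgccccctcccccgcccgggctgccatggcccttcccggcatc
Psmd12: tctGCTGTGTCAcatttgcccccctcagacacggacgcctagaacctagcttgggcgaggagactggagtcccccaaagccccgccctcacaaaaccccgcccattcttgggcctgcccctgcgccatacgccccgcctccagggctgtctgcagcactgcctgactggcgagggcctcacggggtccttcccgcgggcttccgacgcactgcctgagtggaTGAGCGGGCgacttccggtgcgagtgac
In Psmc6 the TGAGNNNGC match reads forward and the TGACNNNGC match is on the minus strand, and so it is in Psmd12. The model of Psmd12 counted here starts at base 107479484, and its TGAGNNNGC match lies inside that model. Its TGACNNNGC match and both matches of Psmc6 lie upstream of the models. The letters are a description and not evidence of binding.

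Genes that work with the proteasome were read from 3 lists: 20 partners (receptors, shuttles, import and assembly factors with other names), 13 genes of ubiquitin supply and of proteasome gene transcription, and 14 of class I presentation and interferon transcription. None of the 47 was called in any comparison with edgeR, nor was any of those named below with DESeq2. At an unadjusted p under 0.05 (edgeR) each list held 2 genes for HP against LP (6.12% of all genes), 0 between HA and HP (5.42%) and 1 between HA and LP (6.51%). In list order, 1, 1 and 4 genes had every HP library above every LP library (5.93% of all genes), and 0 the reverse (5.83%). Between HA and LP, 0, 0 and 1 lay wholly higher in HA (5.4%) and 2, 0 and 0 lower (5.51%). Between HA and HP, 0, 1 and 0 lay wholly higher in HA (5.92%) and 2, 1 and 0 lower (5.89%). For HP against LP, 12 of 20, 7 of 13 and 10 of 14 had a higher estimate. For HA against LP, 8 of 20, 8 of 13 and 14 of 14 had one, against 51.9% of all genes. The median of the presentation list there was 0.18, against 0.01 for all genes. These values changed with the libraries left out, a check added after seeing the data. Without HA 3, 7 of 14 were higher in HA than in LP (all genes 49.2%) with a median of -0.01. Without LP 3 it was 14 of 14 with a median of 0.36, and without HA 3 and LP 3 together 13 of 14 (all genes 51%) with a median of 0.12. B2m, the light chain of class I molecules, stood at 39.3, 47.3 and 61.2 CPM in LP, at 48.4, 51.5 and 52.0 in HP and at 41.3, 55.2 and 93.7 in HA. HA 3 and LP 3 were its highest libraries, as they were for the meningeal marker sums, whose part in this list was not tested. B2m was named after its values were seen.

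Ddi2, the protease that activates Nfe2l1, stood at 54.9, 47.7 and 43.97 CPM in LP, at 57.1, 52.9 and 61.2 in HP and at 52.7, 59.9 and 64.7 in HA. Groups overlapped, with an estimate of 0.27 for HA against LP (SE 0.098, edgeR unadjusted p = 0.0187, adjusted p = 0.756). Ubqln2, a shuttle that brings ubiquitinated proteins to the proteasome, stood at 255.1, 233.4 and 248.4 CPM in LP, at 262.2, 259.1 and 262.3 in HP and at 251.3, 249.7 and 252.8 in HA. HP lay above both other groups, with an estimate of 0.09 against LP (SE 0.039, edgeR adjusted p = 0.81). Usp14, a deubiquitinase on the base, lay at 134.7 to 147.1 CPM in LP, 145.2 to 148.7 CPM in HP and 136.3 to 142.8 CPM in HA.

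Vcp, the segregase that extracts proteins for degradation, stood at 147.3, 155.6 and 142.6 CPM in LP, at 241.4, 221 and 166 in HP and at 153.8, 149.1 and 211.3 in HA. HP lay above LP, and HA 3 lay among the HP libraries. The estimate of HP against LP was 0.50 (SE 0.150, edgeR adjusted p = 0.727), and without a filter on low counts the adjusted p was 0.0227 (edgeR). Rps27a, one of the ubiquitin fusion genes and one whose processed pseudogenes may share its reads, stood at 57.0, 133.4 and 120.3 CPM in LP, at 60, 52.5 and 56.1 in HP and at 68.6, 57.8 and 60.8 in HA. LP 1 lay with the HP and HA libraries and LP 2 and LP 3 apart from them. The estimate of HP against LP was -0.88 (SE 0.245, edgeR adjusted p = 0.678), and it was called without LP 1 (edgeR adjusted p = 0.00187) and without the filter (edgeR adjusted p = 0.00578). That of HA against LP was -0.73 (SE 0.243, edgeR adjusted p = 0.737), with 0.0117 and 0.044 in those settings.

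Stat2, a transcription factor of the type I interferon response, stood at 16.0, 16.0 and 19.2 CPM in LP, at 22.8, 20.7 and 20.6 in HP and at 19.9, 20.6 and 22.7 in HA. LP lay below both other groups, with estimates of 0.32 in HP (SE 0.097, edgeR adjusted p = 0.727) and 0.30 in HA (SE 0.097, edgeR adjusted p = 0.697). Calr, a chaperone of class I assembly in the endoplasmic reticulum, stood at 468.4, 455.6 and 495.2 CPM in LP, at 533.5, 530.6 and 495.4 in HP and at 514, 485 and 533 in HA. HP lay above LP by less than 1 CPM at its lowest library, with an estimate of 0.14 (SE 0.053, edgeR adjusted p = 0.807). Irf1, which drives Psmb8 and Psmb9 under interferon, was highest in HA 3 (9.43 CPM) and LP 3 (7.36 CPM), against 3.79 to 5.89 CPM elsewhere. Nlrc5, the activator of class I genes, was highest in HA 3 at 2.02 CPM, against 0.363 to 1.26 CPM in the others. The part of the tissue markers that are also high in HA 3 and LP 3 was not tested for these genes.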

How the data were processed

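RNA from hypothalamus was sequenced in 9 libraries (NEBNext Ultra, 3 µg RNA, not described as stranded). The authors deposited raw read counts per gene and FPKM values. Per the submitters' processing notes the tools were featureCounts 1.5.0-p3, DESeq2 1.16.1 and HISAT2 2.0.5 and the build mm9, but 53585 of 54495 gene identifiers (98.3%) have the start and end of GENCODE M21 (GRCm38), so coordinates are read as GRCm38. Deposited FPKM were 0.981 to 1.011 times values recomputed from the counts.

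Counts were tested with edgeR 4.0.16 (quasi-likelihood F test, TMM, filterByExpr, all 9 libraries, group as the only term) in R 4.3.3, with Benjamini-Hochberg adjustment over 17546 genes and a threshold of 0.05. Tests were two-sided. SE is the estimate over the square root of F, and 95% intervals use the t distribution with a median of 10.1 degrees of freedom. An exact permutation test of 3 against 3 cannot go below p = 0.1 and was not used. Alternatives were DESeq2 1.42.0, other scalings, no filter, 6 libraries, a replicate block, the title code as a term, and leaving out libraries. Same-numbered LP and HA libraries deviated together (correlations of 0.256, 0.144 and 0.486), which pairs them by the rule used here (each over 0.1). They come from dams on different diets and carry different title codes, so the labels give no such pairing. The value of 0.486 joins LP 3 and HA 3, the libraries with the most meningeal marker RNA, whose part in it was not tested. The replicate block changed no count of calls between LP and HA. The fitting steps were tested on simulated data. A first bar, on how many changed genes were recovered, was missed. After that was seen it was replaced by bars on bias, interval coverage and false calls, with the fit unchanged. Counts within groups differed beyond sampling noise (chi-square per degree of freedom 4.73 to 25.83), so no pair of libraries agreed within it.

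The rule for members uses gene names only, but this gene family and the lists were chosen for description with earlier results of these data known. Values in each library are given for Psmb5 to Psmb10, Psme1 to Psme4, Psmf1 and the 2 genes of smallest p per role or list and comparison; a few of these are given by range. Copies were genes whose transcripts matched over at least 300 bases at 95% identity. Motifs and copies were chosen for display after the values were seen.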

Additional observations from a re-analysis of the deposited data

How the results depend on the processing

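No proteasome gene was called in any alternative run, and of 1470 alternative values of named members 0 changed a call; of 2107 over all named genes 5 did (Rps27a and Vcp, all towards a call), and no called value changed sign. The number of all genes called moved far more. For HP against LP it was 2, but 1 with library totals, 53 without a filter, 32 with DESeq2, 4 with the 6 libraries, 4 with the replicate block and 37 without LP 3 and HA 3 together. For HA against HP it was 2, but 5 without a filter, 8 with DESeq2 and 10 without LP 3 and HA 3. For HA against LP it was 0, but 41 without a filter, 27 with DESeq2, 1 with 6 libraries and 23 without LP 3 and HA 3. The causes were not tested. Leaving out 1 library gave 1 to 21 (most without LP 3), 1 to 9 (most without HA 3) and 0 to 14 (most without LP 3).

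Proteasome genes at an unadjusted p under 0.05 were 3 for HP against LP and 0 without LP 3 and HA 3, where 7.49% of all genes passed (0 to 3 leaving out 1 library). For HA against HP they were 0, but 1 with 6 libraries (5.81% of all genes), 1 with the replicate block (6.49%) and 1 with the title code as a term (6.51%), and 0 to 3 leaving out 1. For HA against LP they were 0, but 1 without LP 3 and HA 3 (7.04%), and 0 to 2 leaving out 1. With library totals, 14 of 46 genes were higher in HA than in HP. Genes whose libraries did not overlap, with library totals, were 1 lower for HP against LP (6.1% of all genes), 3 lower for HA against HP (4.15%) and 2 higher for HA against LP (6.62%). Without LP 3 and HA 3 they were 5 higher and 2 lower for HP against LP (11% and 11.1% of all genes), and 3 higher and 11 lower for HA against LP (18% and 18.1%), fewer libraries making separation easier. Leaving out 1 library gave 3 to 9 higher and 1 to 3 lower for HP against LP, 0 to 2 higher and 5 to 18 lower for HA against HP, and 0 to 2 higher and 3 to 7 lower for HA against LP, with 5.19% to 13% of all genes over these settings. The 9 stood beside 10.5% and the 18 beside 13%. The median of HA against LP was 0.00 with library totals. The immunoproteasome share in LP was 12.7% from raw counts rather than FPKM.

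Replicate numbers are shared between groups in the titles. Deviations of same-numbered libraries correlated between -0.03 and 0.16 for LP with HP and between 0.00 and 0.12 for HP with HA, where same-numbered libraries also share their title code, and 5 of all 9 pairs correlated best with their own number. The replicate block left 0 proteasome genes called in each comparison and, beside the values above, changed no call. Depth limits Psmb8 and Psmb9 through the counting error given with their values.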
